A study of Mus musculus with 6 samples.

Results

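Trp53, which encodes the transcription factor p53, and 9 of its well known target genes (Cdkn1a, Mdm2, Ccng1, Bax, Bbc3, Zmat3, Phlda3, Trp53inp1 and Sesn1) were followed in lung group 2 innate lymphoid cells (ILC2s) with and without the cannabinoid receptor CB2. The genes were chosen by function and taken by symbol. All 10 were among the 18478 genes of the count table, and all 10 passed the filter on low counts, which left 14084 genes. The only measured value they were selected on was having a row in the table, but the list was drawn up with earlier results of these data known, so its counts below describe these genes and are no independent evidence of a direction.

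The cells were ILC2s sorted from lungs of BALB/c mice of 6 weeks, WT or CB2 KO, with 3 libraries in each group. All animals of both groups had been given IL-33 by the nose (3 doses of 1 µg), and all sorted cells were then cultured with IL-7 and IL-2 (10 ng/mL of each) for 24 h. IL-33 is an alarmin that activates ILC2s, and IL-2 and IL-7 are cytokines that keep lymphocytes alive and dividing. The labels do not state how the CB2 KO was made, how many mice were used or whether cells were pooled, so p-values measure the spread between these libraries, which may be technical.

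p53 is held at low protein levels by the ubiquitin ligase MDM2. DNA damage and other stresses release it, and it then binds paired half-sites in DNA and switches on genes for cell cycle arrest, cell death, DNA repair and metabolism, as well as its own inhibitors. Much of this control acts on the p53 protein, so the level of Trp53 RNA is a poor guide to p53 activity. In lymphocytes the pathway is known for limiting the survival and expansion of dividing or damaged cells.

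The promoter sequences are shown first because p53 acts through them. RefSeq promoters (GRCm38.p6, from 250 bases before to 50 bases after a start site) were at hand for 8 of the 10 genes, all but Zmat3 and Trp53inp1, in 12 windows. Each window was searched for the p53 full site, by name the p53 consensus, here 2 adjacent half-sites of 10 bases with no spacer. The C and G at the core of each half-site had to be kept, and up to 3 of the 20 bases could differ. The consensus is its own reverse complement, so 1 search covers both strands. Of the 8 genes, 5 had such a match, against 1.63% of the 27025 genes in the promoter table. Cdkn1a and Ccng1 matched with 1 mismatch, which 0.0814% of genes do; Trp53, Bbc3 and Sesn1 matched with 3. The 5 matches follow, 5′ to 3′ on the gene's strand with 5 bases on each side, the 20 bases of the match in capitals.
Cdkn1a, chr17:29090923-29090952, plus strand: ttcagGAACATGTCTTGACATGTTCagccc
Ccng1, chr11:40755457-40755486, minus strand: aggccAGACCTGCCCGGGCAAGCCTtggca
Trp53, chr11:69580279-69580308, plus strand: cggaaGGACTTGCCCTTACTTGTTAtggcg
Bbc3, chr7:16309481-16309510, plus strand: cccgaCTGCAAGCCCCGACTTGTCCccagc
Sesn1, chr10:41887261-41887290, plus strand: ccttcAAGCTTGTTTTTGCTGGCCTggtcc

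The Cdkn1a match began 51 bases before the upstream start site of the gene, the Ccng1 match 195 bases and the Trp53 match 75 bases before theirs, and all 3 lay outside annotated transcripts. The Bbc3 match began 97 bases before a start site and lay in an intron of 1 longer transcript; the Sesn1 match began 173 bases before the start of a shorter transcript, in an intron of the longest one. The best windows of Phlda3, Bax and Mdm2 had 5, 7 and 9 mismatches, which says only that these letters were not in these windows. The shorter motif ACATGT, which is its own reverse complement and forms the middle of the Cdkn1a half-sites, was in windows of 2 of the 8 genes (Cdkn1a and Phlda3), against 6.14% of the 27025 genes. An exact half-site, which is likewise its own reverse complement and is part of any exact full site, was in windows of 6 of the 8 genes, against 9.55% of genes. A match is a description of the sequence and not evidence of binding in these cells, and some of these genes became known as p53 targets through such sites. The 250 bases upstream of the Cdkn1a start site (chr17:29090729-29090978, plus strand, GRCm38.p6) are printed because Cdkn1a had the smallest p of the 10 genes; capitals mark the full site.
Cdkn1a promoter: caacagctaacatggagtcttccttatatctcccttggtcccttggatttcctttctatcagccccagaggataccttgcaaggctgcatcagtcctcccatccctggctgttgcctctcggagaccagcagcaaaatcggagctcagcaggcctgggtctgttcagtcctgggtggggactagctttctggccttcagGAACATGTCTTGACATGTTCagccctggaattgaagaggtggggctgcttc

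Each library held 17141698 to 21621008 estimated counts, and levels are given in CPM (counts per 1000000 after scaling). Gene positions are those of the deposited table, on mm10. The ILC2 label was checked with 12 markers, all tested, whose summed level ranged from 13122 to 14491 CPM in WT and from 13538 to 15839 CPM in CB2 KO. Il5 made up most of that sum in every library, at 6972 to 7871 CPM in WT, and lay wholly above WT in CB2 KO, at 7888 to 10015 CPM. The log2 fold change was below 0 for 9 of the 12, with a median of -0.17 over all 12, and 6 (Icos, Klrg1, Il2ra, Kit, Gata3 and Il7r) lay wholly below WT in CB2 KO, beside 7.2% of tested genes. EdgeR called 0 of the 12 and DESeq2 called Icos lower and Il5 higher; the part of these differences in the p53 gene levels was not tested. The targeted gene, Cnr2 (chromosome 4, 135895394 to 135920207), was at 9.32, 17.4 and 15.8 CPM in WT replicates 1 to 3 and at 9.24, 1.6 and 3.84 CPM in the libraries labelled CB2 KO replicates 1 to 3 (exact two-sided permutation test, p = 0.1, the smallest that 3 against 3 allows). For Cnr2, the lowest WT library and the library labelled CB2 KO replicate 1 had nearly the same value. The latter also had the fewest genes detected (15021, against 15650 to 16526) and the highest mitochondrial share (0.964% of counts, against 0.652 to 0.764%), and stood alone on the first principal component. For several results that rest on it, values are also given with that library left out.

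Of the 10 genes, 9 had a higher mean in CB2 KO and 1, Zmat3, a lower one. For 6 of them (Cdkn1a, Mdm2, Ccng1, Phlda3, Trp53inp1 and Sesn1) every library labelled CB2 KO lay above every WT library; that was so for 6.91% of all tested genes. Over the 10497 genes averaging 100 counts or more, as all 10 did, that share was 7.25%, and 0 of the 10 lay wholly below WT, as 7.2% of tested genes did. None of the 10 passed edgeR's quasi-likelihood F test at a Benjamini-Hochberg adjusted p below 0.05, which called 0.107% of tested genes (0.0426% higher and 0.0639% lower). Unadjusted p-values were below 0.05 for 5 of the 10, all higher, against 8.6% of tested genes (4.33% higher). DESeq2 called 2.58% of genes (1.19% higher) and among them 4 of the 10, all higher: Cdkn1a, Mdm2, Ccng1 and Trp53inp1. Limma-voom, which called 0.107% of genes, called 0 of the 10. The median log2 fold change of the 10 genes was 0.30, beside -0.00030 over all tested genes. In RNA from a sorted population, fewer cells that express a gene and less of its RNA per cell cannot be told apart.

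**Figure D1:**
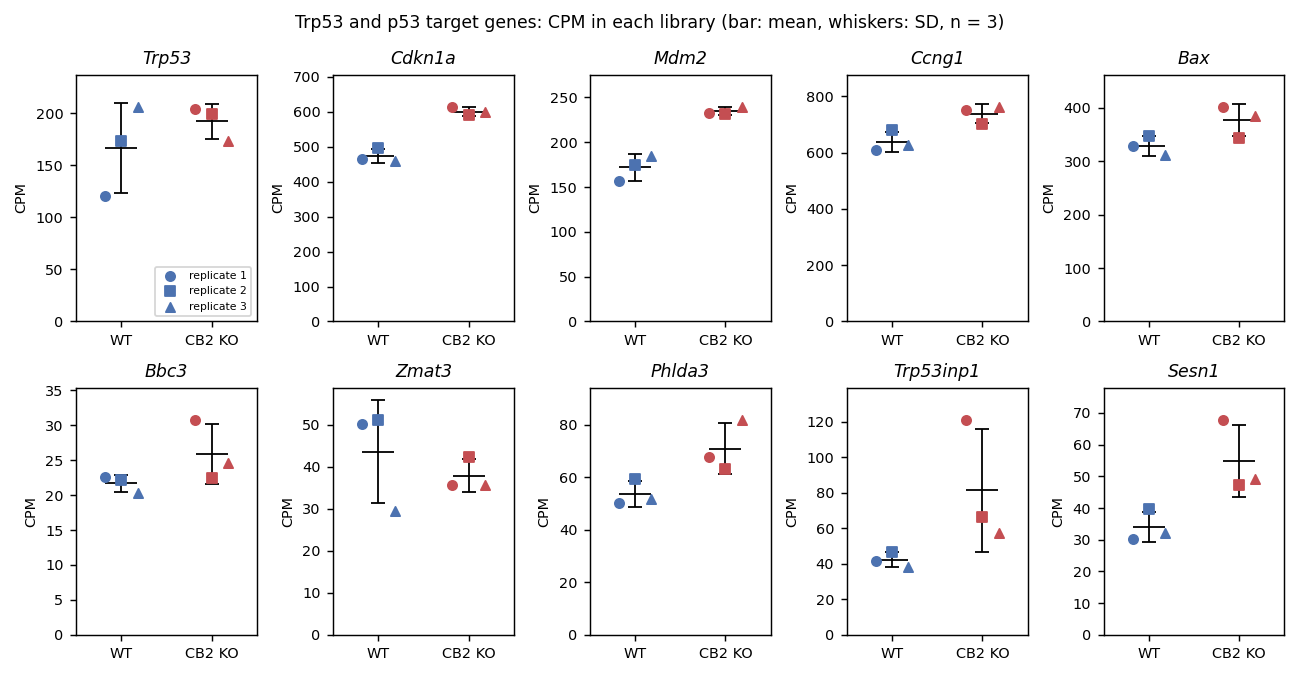
Level of each gene in every library, in CPM on a linear axis from 0; circles, squares and triangles are replicates 1, 2 and 3, the horizontal bar is the mean and the whiskers are the SD (n = 3). The 3 libraries labelled CB2 KO lie above all WT libraries for Cdkn1a, Mdm2, Ccng1, Phlda3, Trp53inp1 and Sesn1, and the groups overlap for Trp53, Bax, Bbc3 and Zmat3.

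Trp53 itself (chromosome 11, 69580359 to 69591873, plus strand) was at 119.95, 174 and 206 CPM in WT replicates 1 to 3 and at 204, 199 and 173 CPM in the libraries labelled CB2 KO replicates 1 to 3. WT replicate 1 was the low library and the groups overlapped. The means were 167 ± 43.5 and 192 ± 16.5 CPM (SD, n = 3 each), with a log2 difference of 0.22 (SE 0.19), which missed the threshold (edgeR, Benjamini-Hochberg adjusted p = 0.806). Without WT replicate 1 that difference was 0.02, and without WT replicate 3 it was 0.39. The spread of Trp53 in WT, a coefficient of variation of 26.1%, was far above the 1.75% that counting alone gives. A pseudogene, Trp53-ps, shares 97.7% of 353 bases with Trp53 over its longest aligned stretch. It was listed at 13.7 ± 3.14 CPM in WT against 15.3 ± 0.338 CPM in CB2 KO (n = 3 each). Some counts of either gene are therefore uncertain, and how many was not measured.

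The 2 genes that act back on p53 were both higher in all libraries labelled CB2 KO. Mdm2 (chromosome 10, 117688875 to 117710758, minus strand), the ligase that marks p53 for degradation, was at 156, 174 and 185 CPM in WT replicates 1 to 3 and at 233, 231 and 239.6 CPM in the libraries labelled CB2 KO. The coefficient of variation was 1.92% over the libraries labelled CB2 KO, close to counting error, and 8.47% over WT. The fold was 1.36, with a log2 difference of 0.45 (SE 0.09, 95% interval 0.24 to 0.67) that did not pass over all genes (edgeR, Benjamini-Hochberg adjusted p = 0.241); DESeq2 gave an adjusted p of 2.06e-05. Ccng1 (chromosome 11, 40748552 to 40755311, minus strand) encodes cyclin G1, a partner of a phosphatase that activates MDM2. It was at 610.1, 679 and 626 CPM in WT and at 753, 701 and 764 CPM in the libraries labelled CB2 KO, so the lowest of the latter was just above the highest WT library. Its log2 difference was 0.21 (SE 0.06; edgeR, Benjamini-Hochberg adjusted p = 0.452; DESeq2, adjusted p = 0.0171). With the library labelled CB2 KO replicate 1 left out, DESeq2 no longer called Ccng1 (adjusted p = 0.0897).

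Cdkn1a (chromosome 17, 29090976 to 29100727, plus strand) encodes p21, the inhibitor of cyclin-dependent kinases that carries much of the arrest response to p53. It was at 465, 495 and 459 CPM in WT replicates 1 to 3 and at 614, 589 and 598 CPM in the libraries labelled CB2 KO replicates 1 to 3. All 3 of the latter lay well above all 3 WT libraries, and both groups were tight, with coefficients of variation of 4.12% and 2.12%. The fold was 1.27, with a log2 difference of 0.34 (SE 0.06, 95% interval 0.21 to 0.48). It ranked 54th by p among 14084 tested genes, yet did not pass (edgeR, Benjamini-Hochberg adjusted p = 0.127), whereas DESeq2 gave an adjusted p of 4.54e-09 and limma-voom 0.116. Leaving out any 1 library gave log2 differences of 0.32 to 0.38. A gene model on the other strand, AC167363.2, overlaps 7.68% of the exon bases of Cdkn1a and is not among the genes of the count table. Since no source used here says whether counting used the strand, reads there cannot be told apart.

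The members that promote cell death differed in how firmly they stood apart. Phlda3 (chromosome 1, 135766119 to 135769136, plus strand) encodes a PH domain protein that restrains AKT. It was at 50.03, 59.3 and 51.7 CPM in WT and at 67.5, 63.3 and 81.7 CPM in the libraries labelled CB2 KO, without overlap (log2 difference 0.39, SE 0.17; edgeR, Benjamini-Hochberg adjusted p = 0.583). Trp53inp1 (chromosome 4, 11156431 to 11174379, plus strand) encodes a stress-induced nuclear protein linked to p53 phosphorylation and to autophagy. It had the largest fold of the 10 genes, 1.92, from 41.8, 46.8 and 38.4 CPM in WT to 121, 66.2 and 57.1 CPM in the libraries labelled CB2 KO replicates 1 to 3. Every one of the latter was above WT, and replicate 1 was far above the other two. The log2 difference of Trp53inp1 was 0.95 (SE 0.32) with all libraries and 0.55 once the library labelled CB2 KO replicate 1 was left out; neither passed (edgeR, Benjamini-Hochberg adjusted p = 0.47 and 0.553), and DESeq2 called both (adjusted p = 0.0428 and 0.0395). Trp53inp1 is on the chromosome of Cnr2, 125 Mb away.

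Bax (chromosome 7, 45461697 to 45466898, minus strand), which encodes a protein that opens the outer mitochondrial membrane, was at 328, 347 and 311 CPM in WT and at 402, 344 and 385 CPM in the libraries labelled CB2 KO replicates 1 to 3. Replicate 2 fell inside the WT range and the other two lay above it (log2 difference 0.20, SE 0.08; edgeR, Benjamini-Hochberg adjusted p = 0.585). Bbc3 (chromosome 7, 16308393 to 16318205, plus strand) encodes PUMA, a BH3-only protein that frees BAX to act. It was at 22.6, 22.2 and 20.3 CPM in WT and at 30.8, 22.5 and 24.5 CPM in the libraries labelled CB2 KO, where replicate 1 stood out and replicate 2 was level with WT. Its log2 difference was 0.25 (SE 0.24; edgeR, Benjamini-Hochberg adjusted p = 0.828), or 0.11 once the library labelled CB2 KO replicate 1 was left out. In the annotation a little expressed gene, Gm45808, shares 12.2% of the exon bases of Bax on the same strand; it averaged 0.109 CPM in WT against 0.157 CPM in CB2 KO.

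Sesn1 (chromosome 10, 41809935 to 41908424, plus strand) encodes sestrin 1, a stress protein that lowers mTORC1 activity, and is also a target of FOXO factors. It was at 30.4, 39.5 and 32.1 CPM in WT and at 67.8, 47.3 and 49.0 CPM in the libraries labelled CB2 KO, all above WT. Its log2 difference was 0.69 (SE 0.22), or 0.50 once the library labelled CB2 KO replicate 1 was left out (edgeR, Benjamini-Hochberg adjusted p = 0.467 and 0.612). Zmat3 (chromosome 3, 32334792 to 32366014, minus strand), which encodes an RNA-binding zinc finger protein, went the other way. It was at 50.3, 51.2 and 29.5 CPM in WT and at 35.6, 42.4 and 35.8 CPM in the libraries labelled CB2 KO, so WT replicate 3 was below every library labelled CB2 KO and the other WT libraries above. The log2 difference of Zmat3 was -0.22 (SE 0.25; edgeR, Benjamini-Hochberg adjusted p = 0.864), and -0.41 without WT replicate 3.

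**Figure D2:**
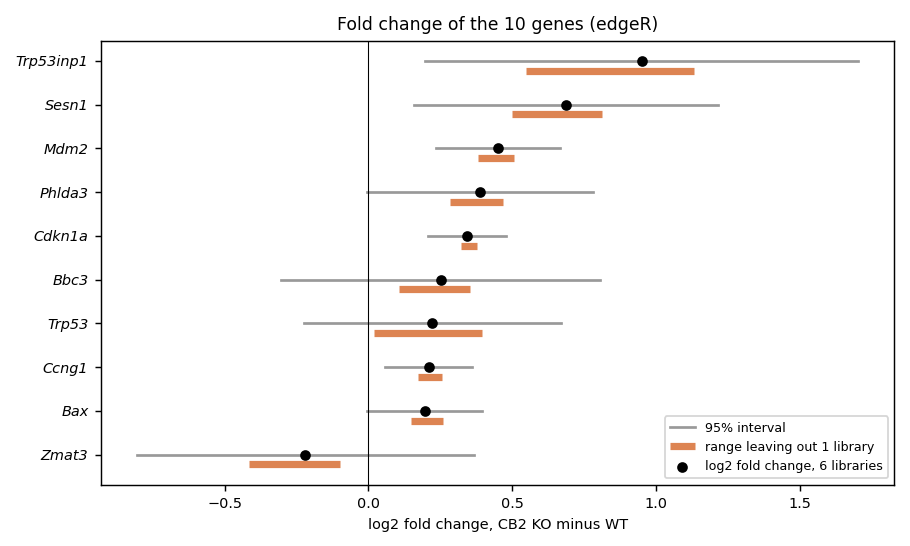
Log2 fold change (CB2 KO minus WT) of each gene from edgeR (point, all 6 libraries), with its 95% interval as a grey line and the range of the 6 fits that each leave out 1 library as an orange bar. Intervals of Trp53inp1, Sesn1, Mdm2, Cdkn1a and Ccng1 exclude 0 before adjustment; the bars of Cdkn1a, 0.32 to 0.38, and of Mdm2, 0.38 to 0.50, are among the narrowest, and that of Trp53inp1 runs from 0.55 to 1.13.

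Seen by library, the shift from the WT mean was similar in the 3 libraries labelled CB2 KO for Mdm2 (0.44, 0.43 and 0.48 on the log2 scale) and Cdkn1a (0.38, 0.32 and 0.34). It was largest in the library labelled CB2 KO replicate 1 for Trp53inp1 (1.51, 0.64 and 0.43), Sesn1 (0.99, 0.48 and 0.53) and Bbc3 (0.50, 0.05 and 0.17). Phlda3 was instead highest in replicate 3 (0.33, 0.24 and 0.61). With only the libraries labelled CB2 KO replicates 2 and 3 compared with WT, 6 of the 10 genes still lay above all WT libraries, where 12.2% of tested genes did. DESeq2 then called 3 of the 10, Cdkn1a, Mdm2 and Trp53inp1, beside 3.74% of all genes; edgeR called 0 of the 10, beside 0.0535% of all genes. The part of the detection and mitochondrial differences of that library in these values was not tested.

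**Figure D3:**
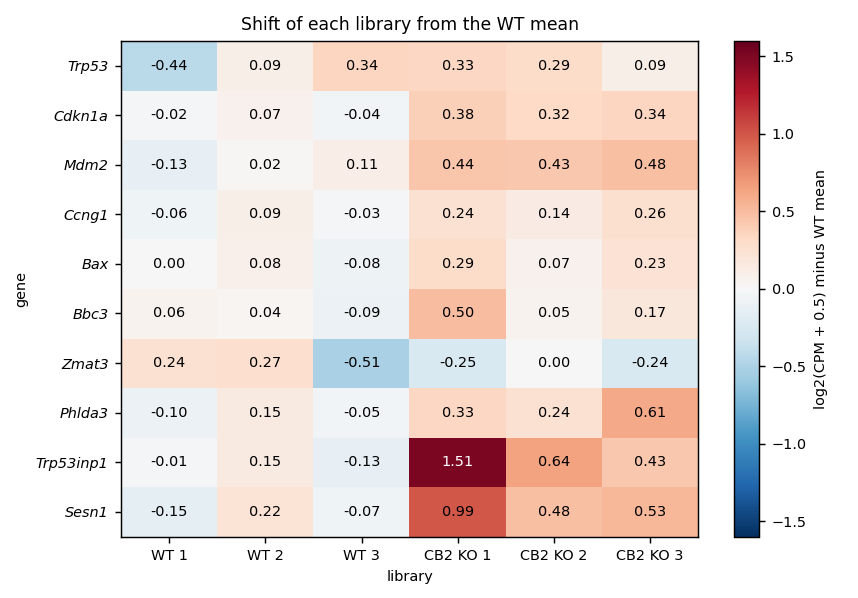
Shift of each library (columns) from the WT mean of the same gene (rows), as log2(CPM + 0.5), written in each cell and coloured from blue (lower) to red (higher). Cdkn1a and Mdm2 have even values across the 3 libraries labelled CB2 KO, Trp53inp1 and Sesn1 are strongest in replicate 1 (1.51 and 0.99), and Trp53 and Zmat3 vary most within WT.

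Per length of exon, the genes fell into 3 ranges. In WT, Bax (208 ± 11.6 CPM per kb), Ccng1 (182 ± 10.3) and Cdkn1a (133 ± 5.49) were highest, and their ranges over the 3 libraries did not overlap. Trp53 (41.2 ± 10.8 CPM per kb), Phlda3 (34.4 ± 3.15) and Mdm2 (33.8 ± 2.86) followed, and these neighbours did overlap. Bbc3 (10.2 ± 0.590 CPM per kb), Sesn1 (8.54 ± 1.22), Trp53inp1 (6.54 ± 0.651) and Zmat3 (3.82 ± 1.07) were lowest, with overlap only between Bbc3 and Sesn1 (SD, n = 3 throughout). In CB2 KO the first 4 places and the last were the same, Mdm2 (46.1 ± 0.884 CPM per kb) and Phlda3 (45.4 ± 6.20) changed places within their spread, and Sesn1 (13.7 ± 2.85) and Trp53inp1 (12.6 ± 5.34) stood ahead of Bbc3 (12.2 ± 2.03), again within their spread.

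**Figure D4:**
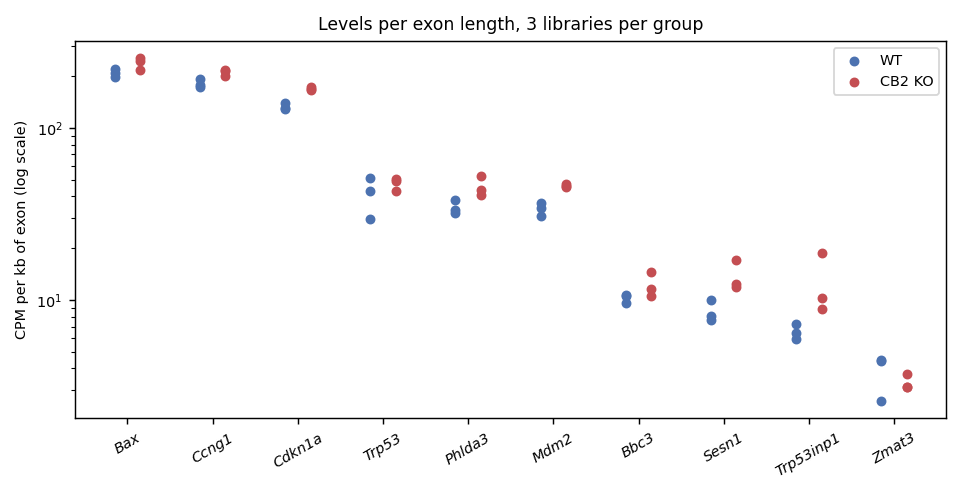
CPM per kb of exon on a log axis for each gene, ordered by the WT mean, with 1 point per library (WT blue, CB2 KO red). Bax, Ccng1 and Cdkn1a lie above 100 CPM per kb, Trp53, Phlda3 and Mdm2 between 29.7 and 52.4, and the other 4 genes below 20.

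The 3 other genes with the profile nearest to that of Cdkn1a over the 6 libraries, of 10496 with a mean count of at least 100, were Eif3g, Piezo1 and Pip5k1c. Their mean absolute differences from Cdkn1a were 0.0398, 0.0458 and 0.0469 on the centred log2 scale. For each of them all libraries labelled CB2 KO were above WT, which follows from choosing them by this profile. Among the nearest to Trp53 were Nsd1 and Atg12, with mean absolute differences of 0.0521 and 0.0531. Both shared its low value in WT replicate 1, again by the way they were chosen. None of these 5 genes is a member of the p53 lists used here.

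The wider pathway was less uniform. Of 59 further p53 targets tested, 0 passed over all genes (edgeR, background 0.107%), 39 had a positive and 20 a negative log2 fold change, and the median was 0.15. All libraries labelled CB2 KO lay above all WT libraries for 7 of the 59 (11.9%, beside 6.91% of all tested genes) and below them for 4 (beside 7.2%). DESeq2 called 2 of the 59, both lower, Sfn and Lif, a share near its 2.58% over all genes. With the library labelled CB2 KO replicate 1 left out, it still called Sfn and Lif lower. It then also called Btg2 (log2 difference 0.70, DESeq2 adjusted p = 3.62e-05) and Aen (0.48, DESeq2 adjusted p = 0.0395) higher. These lists were written from general knowledge of p53 targets with earlier results of the series known.

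Among 14 tested cell death targets, 11 were positive and 3 negative, with a median of 0.33. Aen, which encodes an apoptosis-enhancing nuclease, averaged 75.7 ± 9.86 CPM in WT against 102 ± 6.47 CPM in CB2 KO, the ribosomal protein paralogue gene Rps27l at 262 ± 21.9 and 303 ± 6.49 CPM, and Pmaip1, which encodes the BH3-only protein NOXA, at 35.8 ± 6.84 and 57.7 ± 19.4 CPM (n = 3 each). The groups did not overlap for Aen and Rps27l and overlapped for Pmaip1. The log2 difference of Pmaip1 was 0.72, or 0.44 once the library labelled CB2 KO replicate 1 was left out. None of the 14 passed.

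The 9 tested cell cycle arrest targets split, 4 positive and 5 negative, with a median of -0.26. Btg2, an antiproliferative gene, averaged 43.4 ± 3.19 CPM in WT against 62.3 ± 14.2 CPM in CB2 KO, and the phosphatase-like gene Ptprv at 6.96 ± 3.15 and 12.9 ± 2.47 CPM. The log2 difference of Btg2 was 0.51, or 0.70 once the library labelled CB2 KO replicate 1 was left out. Sfn, which encodes 14-3-3 sigma, was at 9.32, 10.9 and 9.85 CPM in WT and at 2.33, 1.23 and 1.98 CPM in the libraries labelled CB2 KO, a log2 difference of -2.45 (SE 0.42; edgeR, Benjamini-Hochberg adjusted p = 0.0988; DESeq2, adjusted p = 2.75e-06). Sfn lies on chromosome 4 (133600556 to 133602168, minus strand), 2.29 Mb from Cnr2. Whether the targeted locus bears on Sfn was not tested.

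Of 7 DNA repair targets, 4 were positive and 3 negative, with a median of 0.07. Xpc, a damage sensor gene, averaged 21.3 ± 7.80 CPM in WT against 39.4 ± 14.1 CPM in CB2 KO, Ercc5, a repair endonuclease gene, at 40.02 ± 12.03 and 53.5 ± 2.66 CPM, and the replication clamp gene Pcna at 256.01 ± 20 and 226 ± 7.65 CPM (n = 3 each). Of 13 metabolism and autophagy targets, 8 were positive and 5 negative (median 0.09). The 3 with the smallest p, Pank1, Fdxr and Cpt1c, all averaged below 20 CPM in both groups. Pank1 and Fdxr were lower in CB2 KO (log2 difference -2.10 and -0.63). Cpt1c was higher (1.68), by 0.52 once the library labelled CB2 KO replicate 1 was left out. The 4 further feedback targets were 2 positive and 2 negative (median -0.03): the ubiquitin ligase gene Rchy1 averaged 66.3 ± 10.7 CPM in WT against 83.3 ± 8.20 CPM in CB2 KO, Pml, which encodes the scaffold of PML nuclear bodies, at 58.7 ± 5.33 and 47.7 ± 7.48 CPM, and a further ligase gene, Cop1, at 20.7 ± 2.03 and 15.6 ± 3.38 CPM. Among 12 other targets, 10 were positive and 2 negative (median 0.33). Lif, a cytokine gene, was the lower exception with the smallest p, averaging 37.3 ± 15.1 CPM in WT against 9.32 ± 5.88 CPM in CB2 KO (DESeq2, adjusted p = 0.00326; edgeR, adjusted p = 0.351), while the small GTPase gene Rap2b was at 10.96 ± 3.18 and 20.1 ± 2.59 CPM and the adenylate kinase gene Ak1 at 4.67 ± 4.11 and 13.4 ± 4.39 CPM.

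The 20 tested upstream regulators and partners of p53 were balanced, 9 positive and 11 negative, with a median of -0.01 and 0 passing. Mdm4, which encodes the MDM2-related inhibitor of p53, was at 40.3, 54.6 and 36.3 CPM in WT and at 83.4, 78.9 and 48.4 CPM in the libraries labelled CB2 KO. The library labelled CB2 KO replicate 3 lay inside the WT range of Mdm4 (edgeR, Benjamini-Hochberg adjusted p = 0.524). The log2 difference of Mdm4 was 0.69, or 0.56 once the library labelled CB2 KO replicate 1 was left out. Ppp1r13b, which encodes the p53-binding protein ASPP1, averaged 25.3 ± 5.03 CPM in WT against 39.7 ± 4.51 CPM in CB2 KO without overlap (adjusted p = 0.481 by edgeR). Trp73, which encodes the p53 relative p73, had 103, 99 and 110 counts in WT and 0, 0 and 27 counts in the libraries labelled CB2 KO. It too is on chromosome 4, 18.1 Mb from Cnr2, and did not pass (edgeR, adjusted p = 0.393). Of the other listed targets on that chromosome, Sesn2, Aldh4a1 and Epha2 lie nearer, at 3.38, 3.7 and 5.38 Mb. Their log2 differences were 0.11 (SE 0.21), 0.22 (SE 0.23) and 0.26 (SE 0.98), and that of Plk3, 18.8 Mb away, was -0.59 (SE 0.29). Whether the targeted locus bears on any of these genes was not tested.

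**Figure D5:**
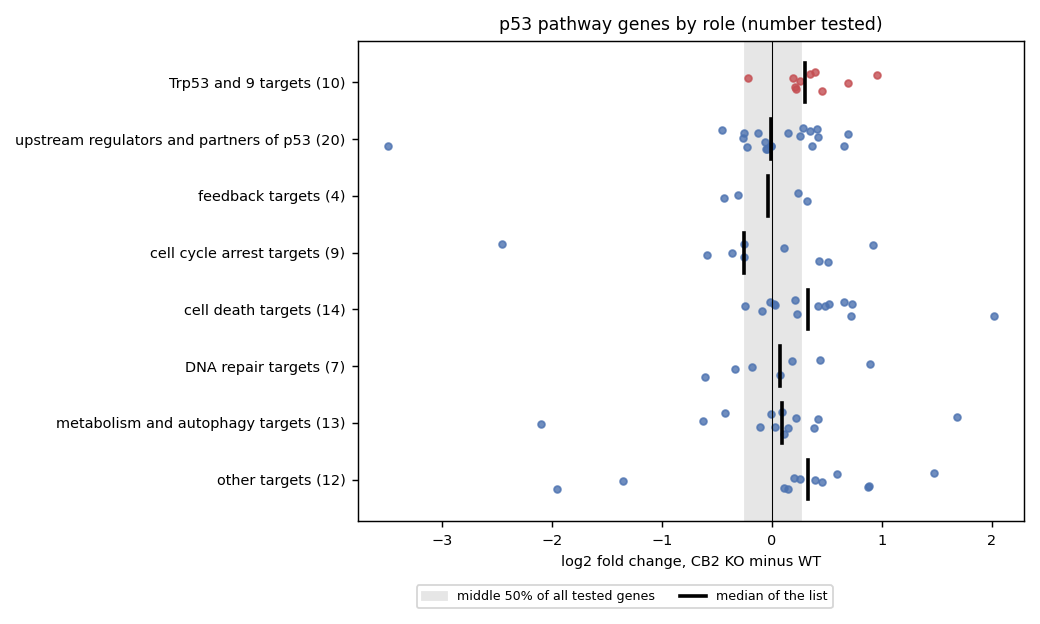
Log2 fold change (CB2 KO minus WT) of every tested gene of each p53 list, 1 point per gene with random vertical spread; black bars are list medians and the grey band is the middle 50% of all tested genes. With all 6 libraries, the medians of Trp53 with its 9 targets (0.30), the cell death targets (0.33) and the other targets (0.33) lie right of 0. That of the cell cycle arrest targets (-0.26) lies left of 0, with low values of several of its genes in the library labelled CB2 KO replicate 1. The points farthest left are Trp73 and Sfn.

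Markers of some other cell types were higher in CB2 KO by their sums. EdgeR called none of them, and DESeq2 called Lyz2 and Tpsb2 higher. The macrophage marker Lyz2 was at 1.64 ± 0.786 CPM in WT and at 10.4, 20.2 and 21.2 CPM in the libraries labelled CB2 KO (DESeq2, adjusted p = 3.49e-09; edgeR, adjusted p = 0.0693). The mast cell marker Tpsb2 was at 2.29 ± 0.937 CPM in WT and at 32.3, 15.7 and 21.8 CPM in the libraries labelled CB2 KO (DESeq2, adjusted p = 5.59e-11; edgeR, adjusted p = 0.0860). The summed level of the 7 listed macrophage and monocyte markers (of 9) was 12.1 to 59.2 CPM in WT against 152 to 176 CPM in CB2 KO, with Chil3 at 0.559, 8.68 and 47.5 CPM in WT and 108 to 143 CPM in CB2 KO, and Mrc1 and Siglecf each at 0 in 5 libraries. The 9 listed mast cell and basophil markers (of 10) summed to 25.9 to 49.4 CPM in WT against 61.0 to 117 CPM in CB2 KO, and the 5 listed T cell markers (of 8) to 11.2 to 17.5 and 28.0 to 33.5 CPM, most of it Cd3g. The 2 listed B cell markers (of 5) summed to 10.9 to 17.3 and 12.8 to 14.9 CPM, the 1 listed NK cell marker to 0 to 7.87 and 0 to 2.12 CPM, the 1 listed eosinophil and neutrophil marker to at most 0.906 CPM, and the 5 listed epithelial and stromal markers (of 7) to 50.7 to 155 and 47.5 to 66.3 CPM. The part of these cells in the levels of the p53 targets was not tested.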

How the data were processed

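RNA of 6 libraries, 3 WT and 3 CB2 KO by their titles, was analysed. The authors deposited an estimated count per gene and library, which the names of their files credit to the Partek E/M quantification. Tools named in the submitters' processing notes are CASAVA 1.8.2, STAR 3.5.3 and Partek, with the build mm10; no strand setting is given in these sources. The authors also deposited a normalized signal, which equals, in each library, a constant times the sum of the estimated count and 1.

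Estimated counts were rounded and tested with edgeR 4.0.16 in R 4.3.3 (TMM, filterByExpr, glmQLFit in its robust, non-legacy form, then glmQLFTest), with Benjamini-Hochberg adjustment over 14084 genes and a threshold of 0.05; 4394 genes were filtered out. SE is the log2 fold change over the root of F. CPM use TMM-scaled library sizes, and per-length levels divide them by the union of GENCODE M21 exons, whose gene positions equal the deposited ones for all 10 members (deposited stops are 1 higher). DESeq2 1.42.0, limma 3.58.1 and other settings were alternatives. Near-identical transcripts were sought with BLAST 2.17.0 (at least 90% identity over 200 bases). The p53 consensus was searched in RefSeq promoters of GRCm38.p6. The workflow was tested on simulated data.

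The members and lists were chosen with earlier results of these data known. Named genes are the 10 members, Cnr2, up to 3 genes with the smallest p per list and the 3 nearest profiles of Trp53 and Cdkn1a, of which 1 is not reported here.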

Additional observations from a re-analysis of the deposited data

How the results depend on the processing

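All 10 genes kept the direction of their log2 fold change in each of 17 other settings (170 values), and edgeR and limma called 0 of the 10 in each. The number of genes past the threshold over the whole table depended more on the setting: 15 in the analysis reported here, 35 with a mean count of at least 100, 23 with limma on the authors' normalized signal, 363 with DESeq2, and 3 to 8 when 1 library was left out. DESeq2 called 4 of the 10 genes and 2 of the further pathway genes. Without the library labelled CB2 KO replicate 1, a setting chosen after seeing the data, it called 538 genes in all. These included 3 of the 10 and 5 of the further pathway genes, among them Sfn, Lif, Btg2 and Aen. Cnr2 then passed too (log2 difference -2.38, DESeq2 adjusted p = 0.000641). With the replicate number as a block, 3 genes passed in all and 0 of the 10. The labels do not state whether the numbers pair the libraries. Deviations of same-numbered libraries correlated by 0.0546, 0.023 and 0.0164, and those of differently numbered ones by -0.0435 to 0.0255. With 3 libraries per group, these values cannot decide it. Leaving out 1 library gave medians of 0.26 to 0.36 for the 10 genes and 0.056 to 0.17 for the further pathway genes. The count of genes whose groups did not overlap was 6 to 8 of 10 under other scalings, beside 6.38 to 7.71% of tested genes, and 6 to 8 without 1 library, beside 11.3 to 12.2%. Every library had at least 358 counts for each of the 10 genes.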
